A study of Mus musculus with 2 samples.

Results

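The 46 genes described here encode the enzymes, carriers and regulators with which a cell makes and recycles glutathione, drives the thioredoxin system and supplies both with NADPH. They were chosen by symbol from a list of these pathways and found on the arrays through the RefSeq transcript accession of each probe, and all 46 had a probe among the 20884 named genes. RNA was compared between 2 cultures, each measured on 1 single-colour Agilent mouse array. SPAD stands for differentiated small proliferative adipocytes and SVCD for differentiated stromal vascular cells, both from the epididymal fat of male C57/BL mice. After collagenase digestion and a brief first spin, the floating cells were spun again. The cells that sedimented in this spin gave SPAD, and the lower phase of the first spin gave SVCD. Both were grown in DMEM to 90% confluency, kept for 3 days with insulin, dexamethasone and IBMX, which induce adipocyte differentiation, and for 2 more days in DMEM alone, so both groups had the same treatment. Cy3-labelled RNA was made from 30 ng of each. The word differentiated is missing from the samples' description fields but stands in their titles, which were followed. The number of mice and of cultures behind each RNA is not stated.

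Glutathione is a tripeptide of glutamate, cysteine and glycine that reduces peroxides and is conjugated to reactive compounds by the glutathione transferases. Thioredoxin is a small protein that reduces disulfides in other proteins and feeds the peroxiredoxins, and both systems draw their electrons from NADPH. The transcription factor NRF2, encoded by Nfe2l2, is held at a low level by KEAP1 and, when released by oxidants or electrophiles, switches on many of these genes together. In adipocytes NADPH is also the reductant of fatty acid synthesis.

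Each difference is the log2 processed intensity on the SPAD array minus that on the SVCD array, after each array was scaled to the 75th percentile of its own probes, so a positive value means higher in SPAD. Intensities are printed as deposited, before this scaling, which moved every difference by 0.13. With 1 array per group there was no replicate and no difference was tested. The error given after ± is the SD of a difference expected between repeat spots of 1 probe at that brightness. It covers the spots and not the cultures or the labelling. A gene is called higher or lower where the difference reached 2-fold, which is a rule of size only. Signals were well above background on at least 1 array for 15632 named genes, among them all 46 antioxidant genes, 45 on both arrays and Ggt1 on the SPAD array only.

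The cultures differed in cell type markers. Of 10 adipocyte markers, 9 were higher in SPAD, with a summed intensity of 133452 in SPAD and 52906 in SVCD. Fabp4, a fatty acid carrier, made up most of these sums, and the other 9 summed to 24956 in SPAD and 21650 in SVCD. The only lower marker was Lpl, lipoprotein lipase, at 2806 in SPAD and 20821 in SVCD. Lpl thus held nearly all of the 21650 in SVCD, and the near balance of the sums without Fabp4 came from it. The 9 higher markers ran from 3.79-fold (Fabp4) to 378-fold higher in SPAD. Of 10 endothelial markers, 8 were higher in SPAD, with a sum of 21734 in SPAD and 7393 in SVCD. Of 9 macrophage markers with a probe, 7 were lower in SPAD, with a sum of 111037 in SPAD and 172755 in SVCD, and 1 of them, Fcgr1, was not above background in SPAD. Most of the SPAD macrophage sum was Lyz2, the lysozyme gene, at 98429 in SPAD and 84459 in SVCD, and the other 8 summed to 12608 in SPAD and 88296 in SVCD. Markers of mesothelium (5 of 8), smooth muscle and myofibroblasts (5 of 6) and cell division (7 of 8) were lower in SPAD as well. Their sums were 1271 in SPAD and 11772 in SVCD for mesothelium, 18357 in SPAD and 246587 in SVCD for smooth muscle, and 9876 in SPAD and 35950 in SVCD for cell division. Pcna, which also serves DNA repair, held 8908 of the last sum in SPAD and 16855 in SVCD, and the other 7 division markers summed to 969 in SPAD and 19095 in SVCD. Of 7 adipose progenitor markers above background, 3 were higher and 2 lower in SPAD, with a sum over the whole list of 6665 in SPAD and 1943 in SVCD. That gap lay in Thy1, at 5344 in SPAD and 669 in SVCD, while the other 7 summed to 1321 in SPAD and 1275 in SVCD. In bulk RNA of this kind, fewer cells of a type and less RNA per cell cannot be told apart. The part of these cell types in the differences below was not tested.

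The antioxidant genes as a set were higher in SPAD. These genes and the related lists below were chosen with earlier results of these data known. Their shares are therefore a description and no test of the set. Of the 46, 23 (50%) were at least 2-fold higher in SPAD, where 16.3% of all 15632 named genes above background were, and 4 (8.70%) were at least 2-fold lower, where 14.1% of all were. Their median difference was 0.91, against 0.06 over all named genes. The members are bright: 39 had a mean signal at or above the arrays' 75th percentile. Among the 6613 named genes as bright as that, 11.9% were higher and 10.6% lower; of the 39 bright members 18 (46.2%) were higher and 4 (10.3%) lower. When the arrays were instead scaled to their spike-in controls, the viral RNAs that the array design carries for equal addition to each labelling, every difference moved by -0.84 and the median of all genes moved to -0.77. On that scale 8 members passed 2-fold on the higher side and 8 on the lower side, and the members' median was 0.068. Of all named genes above background, 6.44% were then higher and 38.3% lower. The counts of each list below are to be read beside the shares of all named genes on the same scale. The shift of -0.84 is the same for every probe, so it leaves the members' place among all genes nearly as it was and is no separate support for it.

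**Figure D1:**
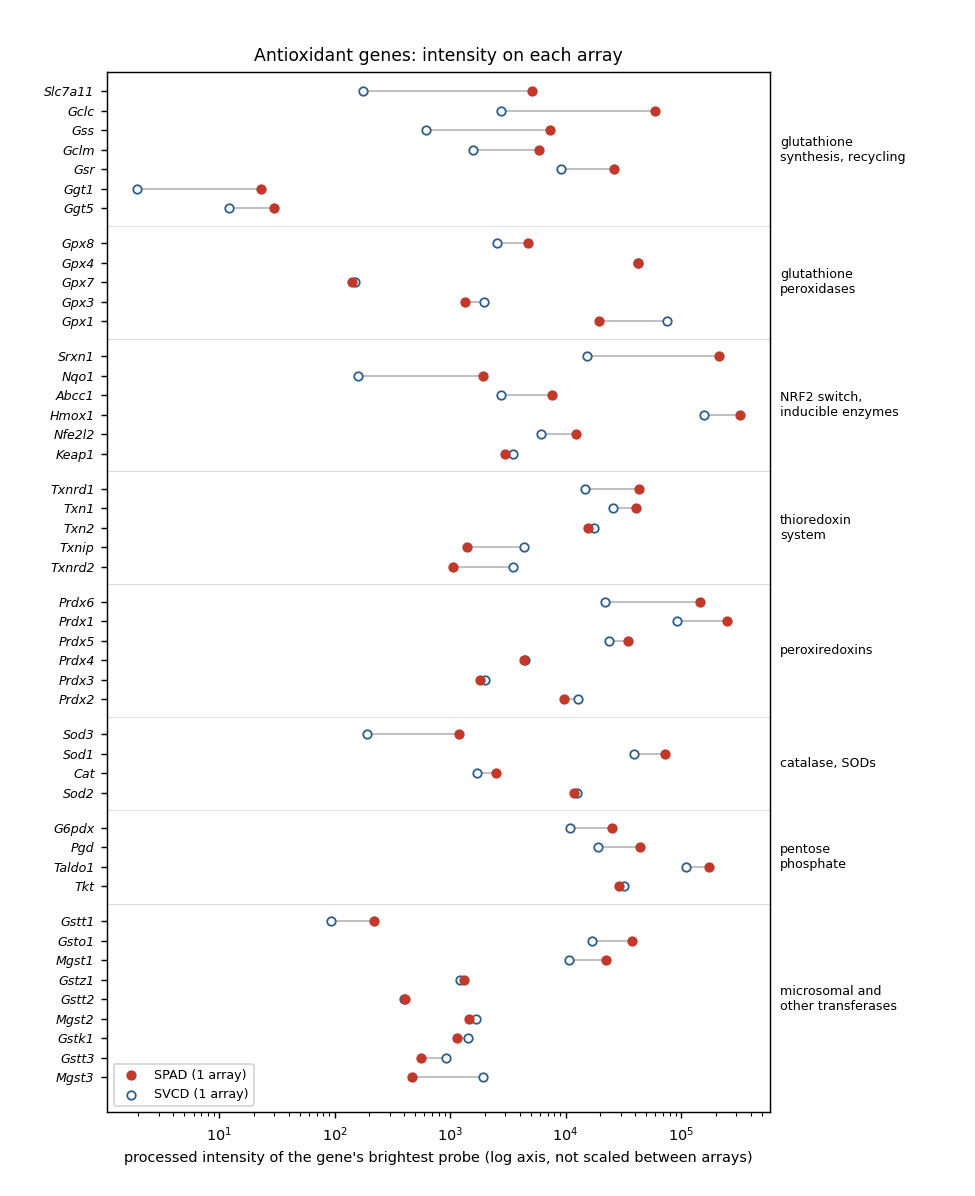
Processed intensity of the 46 antioxidant genes on the SPAD array (filled) and on the SVCD array (open), 1 array each, with the genes grouped by role and a log axis that is not scaled between arrays. A line joins the 2 values of a gene; the longest lines belong to Slc7a11 (5125 in SPAD, 175 in SVCD) and Gclc (59695 in SPAD, 2754 in SVCD).

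The supply and synthesis of glutathione held the greatest differences of the set. Slc7a11, the cystine carrier that brings in the limiting amino acid, had an intensity of 5125 in SPAD and 175 in SVCD, which made it 31.9-fold higher in SPAD (log2 difference 4.99 ± 0.11). Gclc, the catalytic subunit of glutamate-cysteine ligase and so the rate-limiting enzyme of the pathway, had 59695 in SPAD and 2754 in SVCD, 23.6-fold higher (4.56 ± 0.08). Only 44 of the 15632 named genes had a greater excess in SPAD than Slc7a11, and 70 had a greater one than Gclc. Gclm, the modifier subunit that pairs with Gclc, had 5843 in SPAD and 1594 in SVCD, 4.0-fold higher (2.00 ± 0.08). Gss, glutathione synthetase, which adds glycine in the last step, had 7367 in SPAD and 622 in SVCD, 12.9-fold higher (3.69 ± 0.09). The carrier and every enzyme of the synthesis route were thus higher in SPAD, and the 4 remained at least 2-fold higher with spike-in scaling.

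Gsr, glutathione reductase, which returns oxidised glutathione to its reduced form with NADPH, had 26204 in SPAD and 9090 in SVCD, 3.14-fold higher (1.65 ± 0.08). A further Gsr probe gave 1.56. The gamma-glutamyl transferases Ggt1 and Ggt5, which break glutathione down at the cell surface, were dim. Ggt1 had 23.1 in SPAD and 1.96 in SVCD, where it was not well above background, so it was at least 2.93-fold higher (1.55 ± 0.50). Ggt5 had 29.6 in SPAD and 12.1 in SVCD, 2.67-fold higher (1.42 ± 0.50). Both were above 0 but under 2-fold, at 0.43 each, when the background was corrected by normexp, which adds an offset to every signal. All 7 genes of synthesis and recycling were higher, with a median of 2.00, and 4 of the 7 with spike-in scaling, with a median of 1.16.

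NRF2 and the enzymes it is best known to induce were mostly higher in SPAD. Nfe2l2 itself had 12382 in SPAD and 6082 in SVCD, 2.22-fold higher (1.15 ± 0.08), while Keap1, its inhibitor, had 2981 in SPAD and 3482 in SVCD (-0.10 ± 0.08). Srxn1, sulfiredoxin, which restores over-oxidised peroxiredoxins, had 211746 in SPAD and 15485 in SVCD, 14.9-fold higher (3.90 ± 0.08). Nqo1, a quinone reductase, had 1912 in SPAD and 160 in SVCD, 13.05-fold higher (3.71 ± 0.11). Abcc1, which exports glutathione and its conjugates, had 7565 in SPAD and 2783 in SVCD, 2.97-fold higher (1.57 ± 0.08). Hmox1, the inducible heme oxygenase, was bright on both arrays, at 324981 in SPAD and 159372 in SVCD, 2.22-fold higher (1.15 ± 0.08). A dimmer Hmox1 probe gave 50323 in SPAD and 12134 in SVCD, a difference of 2.18, so the probes of this gene disagreed on size by over 1 log2 unit but not on direction. Of these 6 genes 5 were higher, with a median of 1.36; with spike-in scaling Srxn1 and Nqo1 were, and the median was 0.52.

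NRF2 binds, with a small MAF protein, to the antioxidant response element, whose core is written TGACNNNGC. RefSeq promoter windows, from 250 bases before to 50 after a transcript's start on build GRCm38.p6, were at hand for 38 of the 46 genes. They were not for Gclc, Gsr, Ggt5, Hmox1, Abcc1, Prdx6, Sod3 and Gstt2. The core was searched on both strands with the differences already known, so its presence is a description and carries no test. It stood in 10 of the 38 genes (26.3%), against 12.4% of all 32851 windows and 16.4% of the 12408 genes above background that have a window. The 10 were Srxn1, Gclm, Txnrd1, Prdx1, Ggt1, G6pdx, Pgd, Mgst1, Nfe2l2 and Sod1, all among the 16 higher members with a window; none of the other 22 members had it. Among all genes above background the shares were 18.5% of 1974 higher, 16.5% of 1740 lower and 15.8% of 8694 within 2-fold. Some genes have several windows and so more room for a match: Ggt1 has 4, of which 3 held a core, Txnrd1 has 3, and Pgd and Mgst1 have 2 each. Slc7a11, Gss and Nqo1, all far higher in SPAD, had no match within these 300 bases, which says nothing of their sequence elsewhere. The 6 stretches shown here all lie before a start site, with 20 bases on either side of the core where the window reaches so far, written on the strand that reads TGACNNNGC, with the core in capitals.
Gclm: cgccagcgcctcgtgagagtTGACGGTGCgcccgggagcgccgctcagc
Txnrd1: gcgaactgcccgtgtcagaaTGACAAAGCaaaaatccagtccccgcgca
G6pdx: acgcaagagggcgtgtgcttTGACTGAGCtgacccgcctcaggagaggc
Mgst1: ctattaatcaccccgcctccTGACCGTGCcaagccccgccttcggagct
Nfe2l2: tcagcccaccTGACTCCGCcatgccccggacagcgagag
Sod1: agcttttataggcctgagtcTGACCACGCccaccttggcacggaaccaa
Their positions are chr3:122245403-122245451 for Gclm (minus strand), chr10:82859094-82859142 for Txnrd1 (minus), chrX:74428909-74428957 for G6pdx (plus), chr6:138140451-138140499 for Mgst1 (minus), chr2:75704875-75704913 for Nfe2l2 (minus) and chr16:90220686-90220734 for Sod1 (minus). The first base of the core in the gene's direction lay 134 bases before the start in Gclm, 92 in Txnrd1, 57 in G6pdx, 56 in Mgst1, 240 in Nfe2l2 and 56 in Sod1.

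Srxn1 and Prdx1 also carried TGACTCA, the binding sequence of AP-1 factors, which is found in 5.20% of all windows and, in this set, in Mgst2 as well. Their whole windows are shown, in the direction of the gene, because both kinds of match occur in them. Capitals mark the core and the AP-1 letters, both of which may lie on either strand; the AP-1 letters read TGAGTCA where they lie on the opposite one.
Srxn1: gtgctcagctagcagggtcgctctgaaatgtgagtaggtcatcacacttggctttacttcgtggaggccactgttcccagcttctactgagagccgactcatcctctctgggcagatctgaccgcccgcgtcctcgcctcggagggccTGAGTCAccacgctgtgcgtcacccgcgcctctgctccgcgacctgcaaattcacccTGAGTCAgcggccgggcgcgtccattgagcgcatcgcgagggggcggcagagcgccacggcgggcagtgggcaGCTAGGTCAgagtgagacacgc
Prdx1: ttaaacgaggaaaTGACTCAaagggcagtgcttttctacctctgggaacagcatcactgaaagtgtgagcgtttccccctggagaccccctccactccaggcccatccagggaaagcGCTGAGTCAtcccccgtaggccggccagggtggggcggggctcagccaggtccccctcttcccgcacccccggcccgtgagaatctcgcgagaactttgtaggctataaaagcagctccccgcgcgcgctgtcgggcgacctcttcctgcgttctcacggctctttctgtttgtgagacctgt
The Srxn1 window lies at chr2:152105274-152105573 (plus strand) and the Prdx1 window at chr4:116685349-116685648 (plus strand). In Srxn1 the AP-1 letters began 102 and 45 bases before the start, and the core lay apart from them, 29 bases after it. In Prdx1 the AP-1 letters began 237 and 131 bases before the start, and those at 131 lay inside the core TGACTCAGC, so that stretch matches both patterns.

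The 2 thioredoxin reductases of the set differed in opposite directions. Txnrd1, the cytosolic thioredoxin reductase, had 43330 in SPAD and 14761 in SVCD, 3.20-fold higher (1.68 ± 0.08). Txnrd2, the mitochondrial reductase, had 1061 in SPAD and 3489 in SVCD, 3.01-fold lower (-1.59 ± 0.08). These 2 enzymes do the same reaction in different compartments, and their differences lay 3.27 ± 0.11 apart on the log2 scale, a gap that the scaling between arrays cannot alter. Txn1, cytosolic thioredoxin, had 40920 in SPAD and 25614 in SVCD (0.80 ± 0.08), and Txn2, its mitochondrial counterpart, had 15612 in SPAD and 17471 in SVCD (-0.04 ± 0.08). Txnip, which binds and inhibits thioredoxin and restrains glucose uptake, had 1409 in SPAD and 4352 in SVCD, 2.83-fold lower (-1.50 ± 0.08), and a further probe gave -1.12. Other cytosolic and mitochondrial enzymes of the set, paired after their values were seen, had no single order. The difference of Prdx1 stood 1.59 ± 0.08 above that of mitochondrial Prdx3, that of Sod1 0.98 ± 0.11 above that of Sod2, and that of Txn1 0.84 ± 0.11 above that of Txn2. Cytosolic Prdx2 minus Prdx3 was instead -0.26 ± 0.08.

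**Figure D2:**
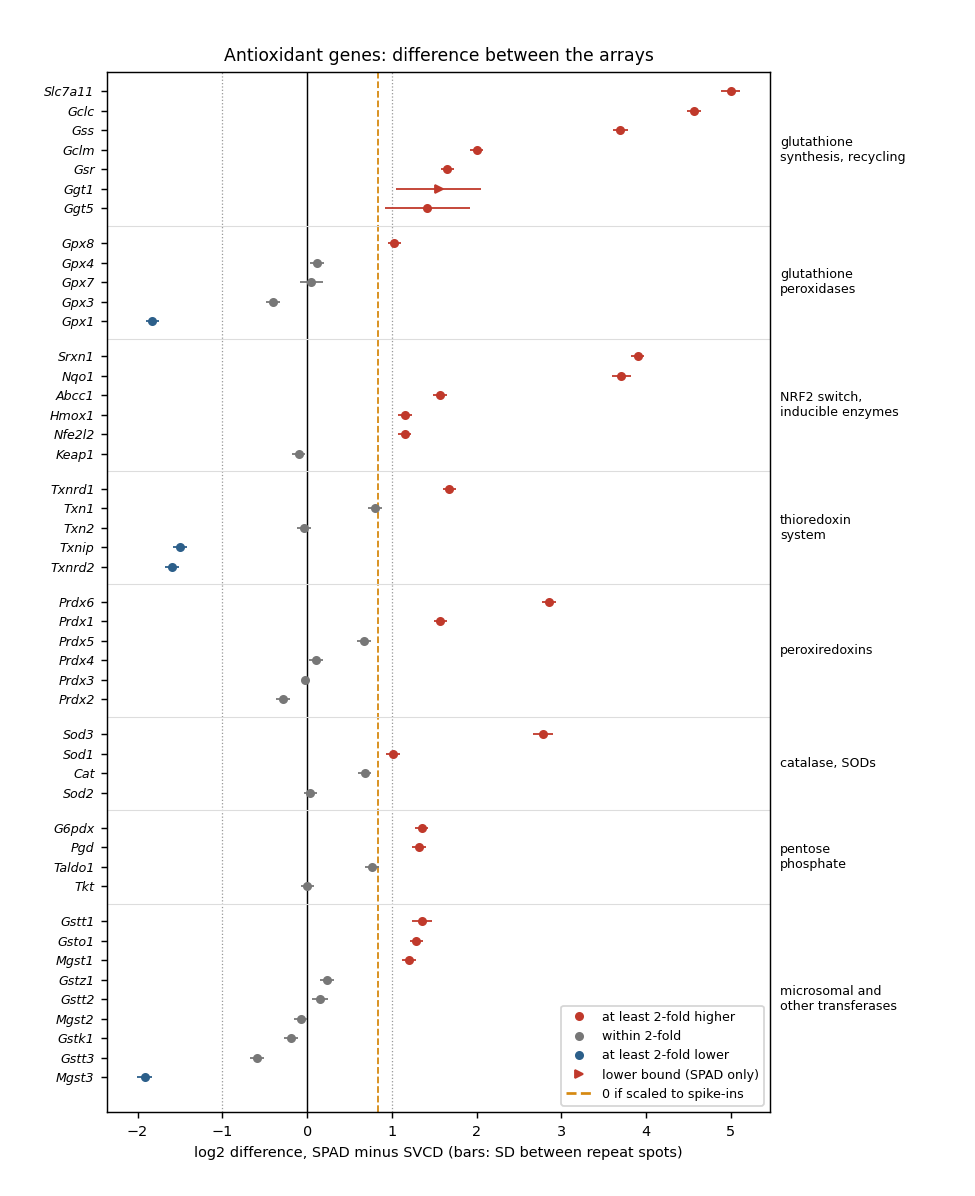
Log2 difference, SPAD minus SVCD, of the 46 antioxidant genes by role, with bars for the SD between repeat spots and dotted lines at 2-fold; the arrow marks Ggt1, known only as a lower bound. The dashed line shows where 0 would lie with spike-in scaling; Slc7a11 (4.99) and Gclc (4.56) lie farthest to the right, and Txnrd1 (1.68) and Txnrd2 (-1.59) lie on either side of both zero lines.

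The peroxiredoxins, which reduce peroxides with electrons from thioredoxin or glutathione, were uneven. Prdx6, which uses glutathione and also has phospholipase activity, had 146219 in SPAD and 22081 in SVCD, 7.22-fold higher (2.85 ± 0.08), and its 4 probes ran between 2.72 and 3.35. Prdx1, a cytosolic member, had 249325 in SPAD and 91525 in SVCD, 2.97-fold higher (1.57 ± 0.08), with 1.66 from a further probe. Prdx5 was 0.67 ± 0.08 above, at 34785 in SPAD and 23806 in SVCD, which is under 2-fold and lies below 0 with spike-in scaling. Prdx2, abundant in red cells, had 9658 in SPAD and 12843 in SVCD (-0.29 ± 0.08). Mitochondrial Prdx3 (-0.02 ± 0.03 over 9 spots) and Prdx4 of the endoplasmic reticulum (0.10 ± 0.08) were nearly level. The median of the 6 was 0.39, and -0.45 with spike-in scaling, where Prdx6 alone was past 2-fold on the higher side.

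The glutathione peroxidases did not share the direction of glutathione synthesis. Gpx1, the widespread cytosolic selenoenzyme that reduces hydrogen peroxide, had 19636 in SPAD and 76014 in SVCD, 3.55-fold lower (-1.83 ± 0.08). Gpx4, which reduces lipid peroxides in membranes, had 42271 in SPAD and 42570 in SVCD (0.12 ± 0.08). Gpx8, a peroxidase of the endoplasmic reticulum, had 4763 in SPAD and 2546 in SVCD, 2.04-fold higher (1.03 ± 0.08), just past the 2-fold line. Gpx7, also of the endoplasmic reticulum, had 142 in SPAD and 149 in SVCD (0.05 ± 0.14), and the secreted Gpx3 had 1349 in SPAD and 1947 in SVCD (-0.40 ± 0.08). So 1 of the 5 was higher and 1 lower, with a median of 0.05, and -0.79 with spike-in scaling.

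Catalase and the superoxide dismutases, which remove hydrogen peroxide and superoxide without glutathione, leaned towards SPAD. Sod3, the extracellular dismutase, had 1201 in SPAD and 190 in SVCD, 6.88-fold higher (2.78 ± 0.11). Sod1, the cytosolic copper and zinc enzyme, had 73162 in SPAD and 39495 in SVCD, 2.02-fold higher (1.01 ± 0.08). Sod2, the mitochondrial manganese enzyme, had 11794 in SPAD and 12522 in SVCD (0.04 ± 0.08). Cat, peroxisomal catalase, had 2520 in SPAD and 1717 in SVCD (0.68 ± 0.08), with 0.81 from a further probe. The median of the 4 was 0.85, and 0.01 with spike-in scaling, where Sod3 alone was past 2-fold. Sod1 was the member nearest the 2-fold line from above, and Txn1, at 0.80, the nearest from below.

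The pentose phosphate pathway makes NADPH in its oxidative branch, and both NADPH-yielding dehydrogenases measured were higher in SPAD. G6pdx, glucose-6-phosphate dehydrogenase, had 25309 in SPAD and 10822 in SVCD, 2.55-fold higher (1.35 ± 0.08). Pgd, 6-phosphogluconate dehydrogenase, had 43759 in SPAD and 19142 in SVCD, 2.49-fold higher (1.32 ± 0.08). Their differences lay closer to each other than the spot error of either. In the non-oxidative branch, which returns sugars to glycolysis, Taldo1, transaldolase, had 173829 in SPAD and 111555 in SVCD (0.77 ± 0.08), and Tkt, transketolase, had 29207 in SPAD and 31789 in SVCD (0.00 ± 0.08). With spike-in scaling G6pdx and Pgd were above 0 but under 2-fold, and Taldo1 and Tkt were below 0.

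The microsomal and other transferases showed no common direction. Mgst1, a membrane enzyme with transferase and peroxidase activity, had 22481 in SPAD and 10680 in SVCD, 2.30-fold higher (1.20 ± 0.08). Mgst3, of the same membrane family, had 470 in SPAD and 1934 in SVCD, 3.77-fold lower (-1.92 ± 0.09), and a further probe gave -2.07. Mgst2, which can make leukotriene C4, had 1456 in SPAD and 1674 in SVCD (-0.08 ± 0.08). Gsto1, an omega-class enzyme, had 38001 in SPAD and 16992 in SVCD, 2.44-fold higher (1.29 ± 0.08). Among the theta class, Gstt1 had 220 in SPAD and 93.6 in SVCD, 2.57-fold higher (1.36 ± 0.12), whereas Gstt2 stood at 0.15 ± 0.09 and Gstt3 at -0.59 ± 0.09. Mitochondrial and peroxisomal Gstk1 stood at -0.19 ± 0.08, and Gstz1, which also acts in tyrosine breakdown, at 0.23 ± 0.08. In all, 3 of the 9 were higher and 1 lower, with a median of 0.15; with spike-in scaling none was higher and 3 were lower.

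**Figure D3:**
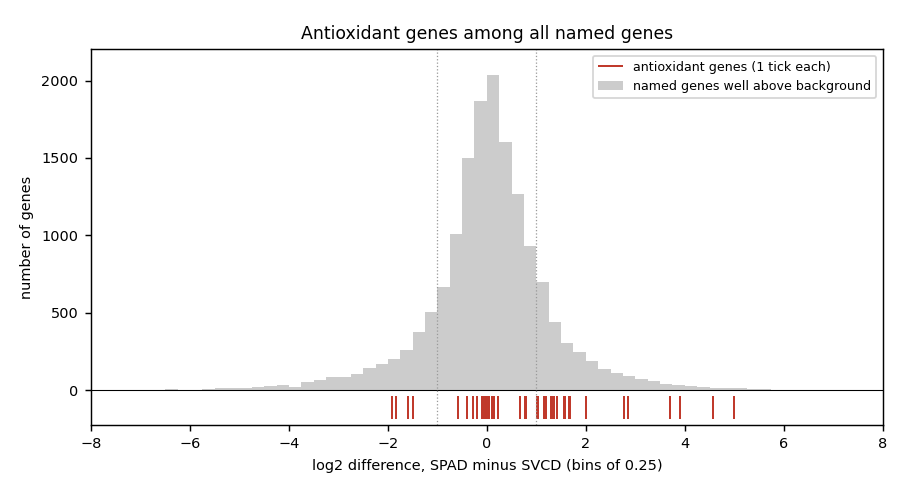
Histogram of the log2 difference, SPAD minus SVCD, of the 15632 named genes above background in bins of 0.25, with a tick under it for each of the 46 antioxidant genes and dotted lines at 2-fold. The ticks gather at and to the right of 0, with 23 past the 2-fold line on the right and 4 past it on the left.

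The lower members were few but steady. Mgst3, Gpx1, Txnrd2 and Txnip were at least 2-fold lower under each of the 9 other processing choices tried. Among all named genes 5.90% had a lower value than Mgst3 and 8.46% a lower one than Txnip. Gpx1 and Txnrd2 are selenoproteins, as are Gpx3, Gpx4 and Txnrd1, so the selenoproteins of the set went both ways. In a further list of 20 genes of selenoprotein synthesis and other selenoproteins, 3 were lower in SPAD and none was higher, a share of lower genes near the 14.1% of all named genes. Their median was -0.12; with spike-in scaling 10 were lower and the median was -0.96. The greatest difference was in Selenoh, a nuclear selenoprotein, at 804 in SPAD and 3529 in SVCD, 4.02-fold lower. It was followed by Sephs1, 2.40-fold lower with another probe at -0.92, and the dim Dio2, an iodothyronine deiodinase, 2.17-fold lower. Selenow had a difference of 0.77. Of the 7 paralogues of Txnip and glucose-sensing factors, none was lower: Arrdc3 was 5.33-fold higher, at 669 in SPAD and 137 in SVCD, and Arrdc2 2.45-fold higher. Arrdc4 stood at 0.71 on its brightest probe and 1.99 on another, and Mlxipl, the factor known as ChREBP that drives Txnip, at 0.65; with spike-in scaling 1 of the 7 was higher and 2 were lower.

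The cytosolic glutathione transferases of the alpha, mu and pi classes, which are outside the 46, were mostly higher in SPAD. Of 11 above background, 10 were higher in SPAD, with a median of 2.64, and 8 with spike-in scaling. Gsta4, which conjugates the lipid peroxidation product hydroxynonenal, had 1975 in SPAD and 36.6 in SVCD, 58.9-fold higher. Gsta2 had 1287 in SPAD and 12.6 in SVCD, where it was not well above background. Set against that SVCD reading, which was brighter than the detection floor, it was at least 111-fold higher. Gstm2 was 7.21-fold higher, and the probes of Gstm4 disagreed, with log2 differences of 2.97 and 0.63. These genes have close copies whose transcripts a probe may share, which was not tested.

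Other known NRF2 targets were also mostly higher, at 15 of 21 with 1 lower and a median of 1.80; with spike-in scaling 9 were higher and 2 lower. The 15 include Gsta4 and Gstm1, which are also counted among the transferases above, and Me1, which is also counted among the NADPH sources below. Besides Gsta4, the greatest were Sqstm1, the autophagy receptor that sequesters KEAP1, at 37810 in SPAD and 4134 in SVCD (9.98-fold higher), Osgin1 (9.61-fold) and the aldehyde oxidase Aox1 (8.71-fold). Of 11 partners and regulators of NRF2, 6 were higher and none lower, with a median of 1.11; with spike-in scaling 4 were higher and 2 lower. Besides Sqstm1, which is counted here too, they included the small MAF genes Mafk, at 3068 in SPAD and 613 in SVCD (5.46-fold higher), and Maff (5.26-fold), and Fosl1, an AP-1 subunit (5.64-fold).

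**Figure D4:**
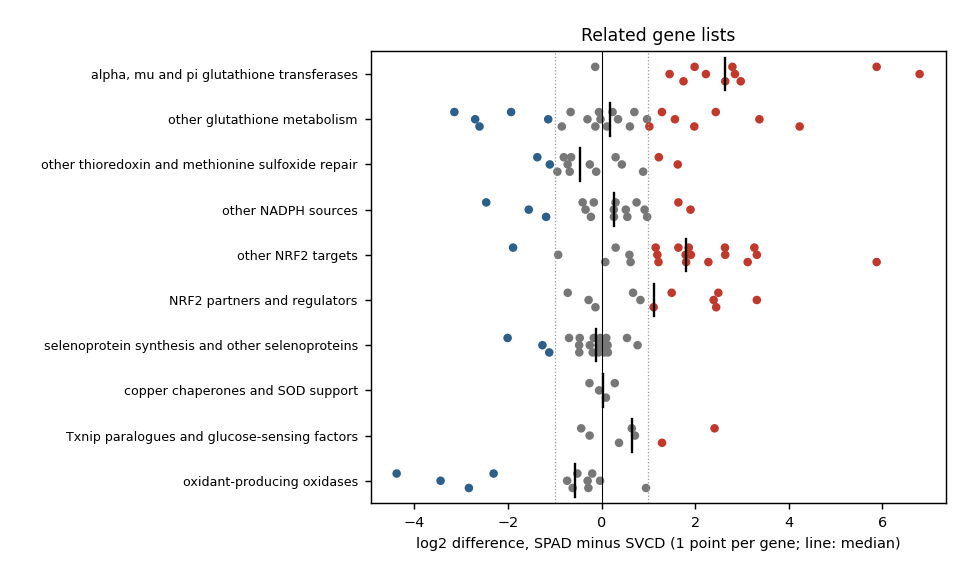
Log2 difference, SPAD minus SVCD, of each gene of the 10 related lists that was above background on at least 1 array, with a line at each list's median and dotted lines at 2-fold (red higher, blue lower, grey within). The alpha, mu and pi transferases (median 2.64) and the other NRF2 targets (1.80) lie farthest to the right and the oxidases (-0.57) farthest to the left; spike-in scaling would move every point by -0.84.

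The other genes of glutathione metabolism, the thioredoxin system and NADPH supply had no common direction. Of all named genes, 16.3% were higher and 14.1% lower, and 6.44% and 38.3% with spike-in scaling. Of 24 other genes of glutathione metabolism, 7 were higher and 5 lower, with a median of 0.17; with spike-in scaling 4 were higher and 8 lower. Chac1, which degrades glutathione in the cytosol, had 8896 in SPAD and 937 in SVCD, 10.4-fold higher, and the dipeptidase Dpep1, of the surface breakdown route, had 610 in SPAD and 35.4 in SVCD, 18.8-fold higher. Its relative Dpep2 was 8.86-fold lower and the aminopeptidase Anpep 6.51-fold lower, at 4518 in SPAD and 32081 in SVCD. Genes of breakdown thus stood at both ends. Of 14 other genes of the thioredoxin system and of methionine sulfoxide repair, 2 were higher and 2 lower, shares near those of all named genes. Their median was -0.45, and with spike-in scaling none was higher and 8 were lower. The higher were the sestrins Sesn2 (3.09-fold) and Sesn3 (2.33-fold), and the lower the methionine sulfoxide reductases Msrb2 (2.59-fold) and Msra (2.15-fold).

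Other sources of NADPH were split, in shares near the 16.3% higher and 14.1% lower of all named genes. Of 17, 2 were higher and 3 lower, with a median of 0.26; with spike-in scaling 1 was higher and 7 were lower. Me1, the cytosolic malic enzyme that feeds fatty acid synthesis, had 6251 in SPAD and 2186 in SVCD, 3.12-fold higher, and the mitochondrial folate enzyme Aldh1l2 was 3.73-fold higher. Idh2 had 1268 in SPAD and 7641 in SVCD, 5.52-fold lower, and the cytosolic folate enzyme Aldh1l1 was 2.94-fold lower. The 4 copper chaperones and carriers that serve the dismutases were within 2-fold. These were Ccs, which loads copper into SOD1 (0.28), Atox1 (0.09), Slc31a1 (-0.05) and Slc31a2 (-0.26), and with spike-in scaling 1 of the 4 was at least 2-fold lower.

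Among the enzymes that make superoxide and peroxide, 8 of 12 genes above background were within 2-fold, 4 were lower in SPAD and none was higher, with a median of -0.57; with spike-in scaling 10 were lower. Of the 4, 3 encode subunits of the phagocyte oxidase. Ncf1, a cytosolic subunit of the phagocyte NADPH oxidase, had 126 in SPAD and 2855 in SVCD, 20.8-fold lower. Ncf4, another such subunit, had 1280 in SPAD and 15169 in SVCD, 10.9-fold lower, and Cybb, the catalytic subunit, had 338 in SPAD and 1823 in SVCD, 4.95-fold lower. Nox4, the oxidase of non-phagocytic cells, had 25.0 in SPAD and 195 in SVCD, 7.14-fold lower, with -1.91 on another probe. Of the 9 macrophage markers with a probe, 7 were lower in SPAD. The median of the 9 was -2.72 and the highest, Lyz2, stood at 0.35. Csf1r, the receptor of a macrophage growth factor, had 3185 in SPAD and 58410 in SVCD, 16.8-fold lower (-4.07). Its other probes disagreed on size, at -4.03 and -1.64. The part of macrophage content in the phagocyte subunits was not tested.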

How the data were processed

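RNA of SPAD and SVCD was measured on 1 array each, both on the same slide and scan. Agilent Feature Extraction 10.7.3.1 read the spots, as the submitters' processing notes give it. The deposited scanner files give a background-subtracted processed intensity per spot on a linear scale, with flags for signals above background, outliers and saturation (0 saturated spots), per the file headers. A value table on the log2 scale, deposited by the authors too, served only as an alternative; how it was scaled is not given in the sources.

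Of 44397 spots per array, 1377 controls and 73 (SPAD) and 85 (SVCD) outlier spots were left out, and repeat spots were averaged. Values are log2 intensity minus the array's 75th percentile, an intensity of 622 in SPAD and 678 in SVCD. Signals were well above background for 64.5% of probes in SPAD and 65.6% in SVCD. RefSeq accessions named 27506 of 39425 probes (69.8%); names and promoter sequences are from RefSeq's GRCm38.p6, while the array files use another build, from which no coordinate was taken. Each gene was read from its brightest probe by mean log2 signal; 38 members had 1 probe and 8 several, and probes 1 log2 unit or more apart are given as disagreeing. A gene above background on 1 array only was set against the other array's detection floor, or against its own reading there where that was brighter, as a lower bound. The floor is the lowest signal of a named probe flagged well above background on that array.

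The error comes from probes spotted 10 times per array, pooled in 6 bins of brightness (588 probe and array combinations), and ran from 0.03 to 0.50 over the members, with a median of 0.08. The error given by the scanner software was wider, with a median of 0.20, and 11 members differed by less than it. The number of arrays limits the precision. Scripts were tested on simulated data.

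Alternatives were normexp background correction (offset 50, limma 3.58.1 in R 4.3.3, on median spot signals because the scanner files hold no mean signal), quantile normalization, no scaling, the percentile over probes above background on both arrays, spike-in scaling, no filter on dim probes, leaving out genes detected on 1 array, the mean over probes, the deposited table, and 1.5-fold in place of 2-fold. The members and lists were chosen with earlier results of these data known. Every member is reported. Of each other list, at most the 4 genes with the largest absolute difference are named, apart from Gstm1 and Me1, named as genes that stand in more than 1 list. Of the cell type markers, Lpl, Fabp4, Lyz2, Pcna and Thy1 were named after their values were seen, because they depart from their list or carry its sum. Fcgr1 was named as the macrophage marker not above background in SPAD. Csf1r, whose difference was lower than the median of the macrophage markers, was named too.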

Additional observations from a re-analysis of the deposited data

How the results depend on the processing

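With spike-in scaling 8 members passed 2-fold on the higher side and 8 on the lower side, and the median was 0.068, against 23, 4 and 0.91 with the 75th percentile. Of all named genes, 6.44% were higher and 38.3% lower with spike-in scaling. Higher genes made up 14.4% of all named genes past 2-fold with the spike-ins and 53.6% with the percentile. The scaling rests on 8 of 10 spike-in probes, whose unscaled log2 differences were 0.65 to 0.77 apart from 1 at 1.76. The 8 higher were Slc7a11, Gclc, Srxn1, Nqo1, Gss, Prdx6, Sod3 and Gclm. With normexp the members' median was 0.70, with 21 higher and 4 lower, against 9.44% higher and 9.10% lower among all named genes; the cause was not tested. The other alternatives at 2-fold gave 21 to 23 higher, 4 lower and medians of 0.74 to 0.91, and 19 of the 23 higher members passed 2-fold in every alternative other than spike-in scaling. The exceptions were Ggt1, Ggt5, Gpx8 and Sod1. No member past 2-fold turned to the other direction. At 1.5-fold 27 members were higher and 5 lower, against 27.5% and 22.3% of all named genes. No paired analysis was possible because each group has 1 array and no replicate number, so leaving out a replicate was not possible either. Dim signals limit Ggt1 and Ggt5 most, at an error of 0.50.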
